A study of Mus musculus with 18 samples.

Results

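Collagens are the triple-helical proteins of the extracellular matrix, and the genes of their chains carry symbols that join Col, a type number, the letter a and a chain number. Every gene name of that form in the deposited transcript tables was taken, apart from 1 that is not reported here. This gave 43 of 23905 gene names, spread over 11 fibrillar chains, 9 fibril-associated chains, 6 chains each of basement membrane networks and of beaded filaments, and 11 chains of smaller classes. The samples were RNA libraries of male C57BL/6 offspring at 3 weeks of age, 18 in all: 6 each of liver, hypothalamus and gonadal fat. In each tissue 3 samples came from offspring of dams given bisphenol A (BPA), an estrogenic plastics chemical, in corn oil by oral gavage at 5 mg/kg each day from day 1 to day 20 after conception. The other 3 came from offspring of dams gavaged with corn oil alone. All dams had been kept on a diet low in plant estrogens, and all offspring ate standard chow. The expression columns are headed by a tissue and a number, and that number occurs in no sample label. Columns were therefore grouped by tissue only, each tissue holds both treatments in an unknown order, and no effect of BPA was tested. The mice came from 3 vehicle and 4 BPA litters. Which columns share a mouse or a litter is not given, so p-values measure only the spread between these columns.

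Collagen chains wind into a triple helix, and the classes differ in what the molecules build. Fibrillar collagens form the tension-bearing fibrils of connective tissue and are made mainly by fibroblasts and their relatives. Type IV collagens form the sheet-like network of basement membranes around vessels, adipocytes and nerves, and the other classes decorate fibrils, link cells to them or sit in the plasma membrane. Adipocytes lie in a basement membrane and a fibrillar stroma, the brain parenchyma holds fibrillar collagen mainly around vessels and in the meninges, and the healthy liver has a sparse matrix in which stellate cells make most of the fibrillar collagen.

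Values are FPKM, fragments scaled to transcript length and to all mapped fragments of a column, summed over the transcript models of a gene name in each column. The files hold no read counts, so the depth of the columns is unknown. A value of 0 can be a failed estimate: of 18 housekeeping genes, 4 were listed at 0 in every column of at least 1 tissue, Gapdh in all 6 adipose columns among them. Genes are therefore called listed at 0, and values are given by column or by range. The defining markers followed the labelled tissues. Summed adipocyte markers were at 2581 to 6241 FPKM in adipose, neuron markers at 1833 to 2130 in hypothalamus and hepatocyte markers at 7705 to 51560 in liver. Some columns stood apart. The epididymal gene Crisp1 was at 256.4, 475.3 and 282.3 FPKM in adipose columns 03, 10 and 41 and listed at 0 in columns 15, 25 and 42. Ttr, which is strongly expressed in choroid plexus, was at 646.1 FPKM in hypothalamus column 03 and at 2.17 to 9.08 in the others. Alb was at 1112 FPKM in liver column 28 and at 30770 to 41280 in the others.

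Adipose carried by far the most collagen RNA, and each tissue had its own leading class. Summed over the 43 genes, FPKM was 1662 to 2883 in the adipose columns, 73.2 to 92.8 in hypothalamus and 99.4 to 260.6 in liver. That was 0.815 to 1.72% of all FPKM in adipose, 0.0303 to 0.0394% in hypothalamus and 0.0314 to 0.0876% in liver. The ranges of adipose and the other tissues did not overlap. In adipose, fibrillar chains made up a median 69.6% of collagen FPKM, type IV chains 17.9% and beaded filament chains of type VI 10.1%. In hypothalamus, type IV led with 29.1%, followed by fibrillar chains with 22.3%, fibril-associated chains with 20.0% and the transmembrane class with 16.2%. In liver, the multiplexin class made up 67.5% and fibrillar chains 19.7%. The order within adipose was the same over columns 15, 25 and 42, where Crisp1 was listed at 0, with medians of 68.8%, 19.9% and 10.0%. Because these are pieces of whole tissue, more RNA per cell and more cells of a collagen-making type cannot be told apart.

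**Figure D1:**
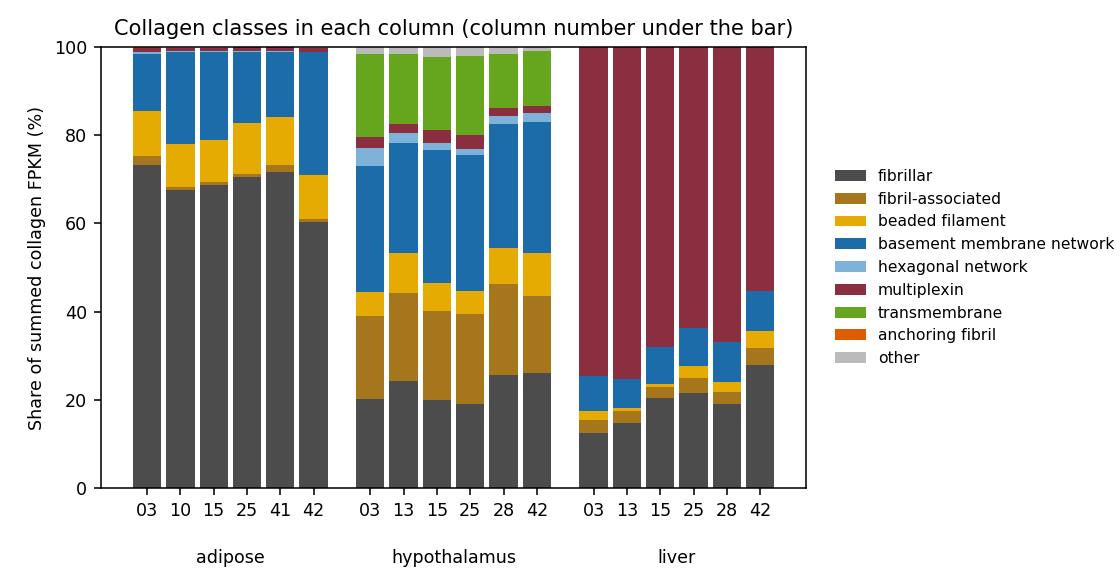
Share of summed collagen FPKM (%) taken by each collagen class, stacked to 100%, with 1 bar per column and the column number under the bar. Fibrillar chains fill 60.4 to 73.3% of every adipose column, no class passes 30.8% in hypothalamus, and the multiplexin class fills 55.3 to 75.2% of every liver column.

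Tissues were compared with limma on log2(FPKM + 1) over 12744 genes with at least 1 FPKM in at least 6 columns. A gene was called higher or lower at a Benjamini-Hochberg adjusted p under 0.05 and a difference of at least 1 on that scale. Of the 43 collagens, 23 entered the test, and 8 of these reached 1 FPKM in a single tissue only, so that passing the filter already meant a difference. For those 8 (Col4a6, Col5a3, Col6a5, Col6a6, Col9a2, Col9a3, Col11a2 and Col25a1) levels are given below without p-values. Col5a2 and Col6a3 also passed the filter through their adipose columns, Col8a2 mainly through them and Col11a1 through its hypothalamus columns. The p-values of these genes are left out too. Against hypothalamus, 16 collagens were higher in adipose, where 13.1% of all genes tested were, and 4 were lower, where 38.3% of all genes were. Against liver, 17 collagens were higher in adipose beside 22.8% of all genes, and 1 was lower beside 12.8%. Between hypothalamus and liver, 8 collagens were higher in hypothalamus beside 48.4% of all genes, and 4 were lower beside 13.1%. The 8 higher are a share of 23 below that of all genes, so they say nothing particular about collagens. The median difference of the 23 collagens was 3.27 in adipose against hypothalamus, 3.63 in adipose against liver and 0.20 in hypothalamus against liver, on the log2(FPKM + 1) scale. Over all genes it was -0.62, 0.20 and 0.94, and quantile normalization moved these to 0.07, -0.03 and -0.04. Under that scaling the collagen calls were 18 higher and 4 lower, 17 and 1, and 4 and 5. These counts and medians include the 8 genes above, and the counts also rest on genes listed at 0 throughout a tissue. Of the 14 tested collagens not at 0 throughout adipose or hypothalamus, 11 were higher in adipose and 0 lower, so all 4 lower calls came from genes at 0 in every adipose column. All 4 are among the 8. Col5a3, which is among the 8 too, still counts in the 11, as do Col5a2 and Col6a3. Of the 11 not at 0 throughout adipose or liver, 10 were higher in adipose, Col5a2 and Col6a3 among them, and 1 was lower. Of the 9 not at 0 throughout hypothalamus or liver, 1 was higher in hypothalamus and 2 were lower. No direction for collagens as a group is therefore given between hypothalamus and liver.

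**Figure D2:**
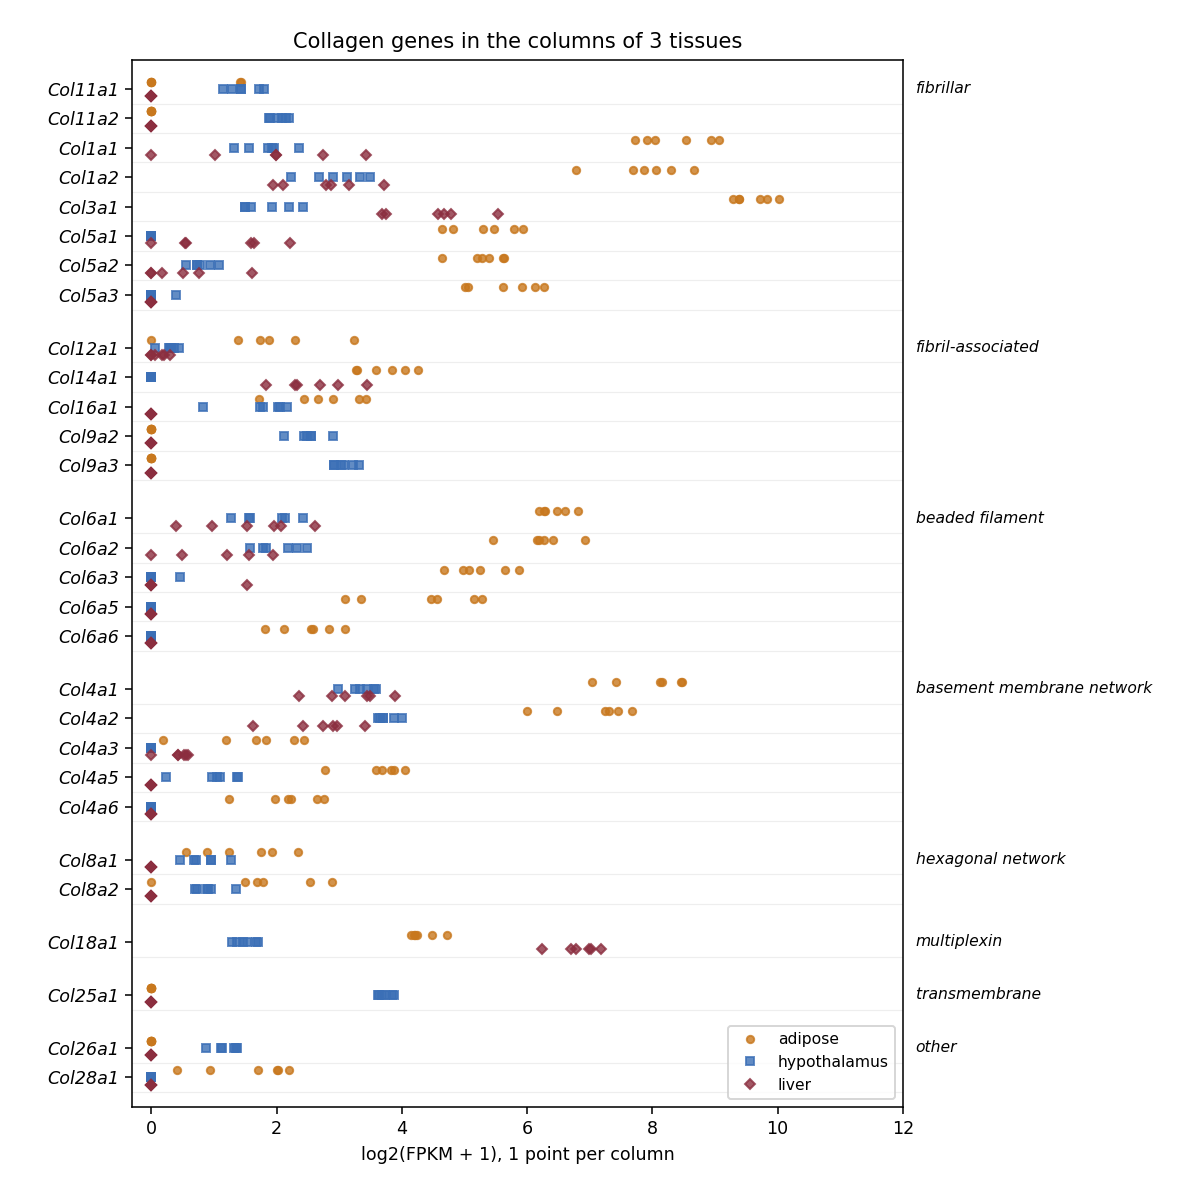
Log2(FPKM + 1) of the 29 collagen genes with a median of at least 1 FPKM in a tissue, 1 point per column, colour and shape marking the tissue and gene names grouped by class. Most fibrillar, beaded filament and basement membrane genes lie farthest right in adipose, Col18a1 lies farthest right in liver, and Col25a1, Col9a3, Col9a2, Col11a2 and Col26a1 are above 0 in hypothalamus only.

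Among the fibrillar collagens, Col3a1, Col1a1 and Col1a2 were the 3 highest collagens in adipose. Col3a1, the single chain of type III collagen of pliable tissues, was at 664.8, 668.5, 908.0, 1042, 836.9 and 620.8 FPKM in adipose columns 03, 10, 15, 25, 41 and 42. In hypothalamus columns 03, 13, 15, 25, 28 and 42 it was at 2.03, 2.81, 1.83, 1.82, 3.58 and 4.37 FPKM, and in the liver columns of the same numbers at 12.5, 11.9, 22.8, 26.5, 24.6 and 45.2. The 3 tissues did not overlap. The difference was 7.74 (SE 0.27, limma adjusted p = 4.3e-15) in adipose against hypothalamus and 5.10 (SE 0.27, adjusted p = 6.1e-12) in adipose against liver. It was -2.64 (SE 0.27, adjusted p = 3.2e-08) in hypothalamus against liver, so that liver stood between the other tissues.

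Col1a1 and Col1a2 encode the chains of type I collagen, the main fibril protein of skin, tendon and bone. Col1a1 was at 240.2, 370.4, 487.5, 535.4, 210.6 and 263.7 FPKM in the adipose columns, in the same order. It was at 1.5, 2.66, 1.95, 2.88, 4.15 and 2.81 in hypothalamus and at 1.03, 0, 2.96, 5.69, 3.0 and 9.75 in liver, so hypothalamus and liver overlapped and adipose lay far above both. In adipose column 25 a model that starts upstream of the others carried 252.5 FPKM, 47.2% of the gene's value there, and in no other column was it above 0. Col1a2 was at 231.8, 264.6, 406.8, 314.3, 206.2 and 108.6 FPKM in adipose, at 6.50, 7.70, 5.41, 3.71, 9.03 and 10.3 in hypothalamus and at 3.28, 2.85, 5.90, 7.94, 6.31 and 12.1 in liver. For Col1a1 the adipose difference was 6.54 (SE 0.43, limma adjusted p = 8.6e-11) from hypothalamus and 6.51 (SE 0.43, adjusted p = 1.9e-10) from liver. For Col1a2 it was 4.93 (SE 0.32, adjusted p = 7.3e-11) and 5.13 (SE 0.32, adjusted p = 8.6e-11). Between hypothalamus and liver, neither Col1a1 (-0.03, SE 0.43, adjusted p = 0.96) nor Col1a2 (0.20, SE 0.32, adjusted p = 0.58) passed, but after quantile normalization Col1a1 was lower in hypothalamus (-1.13, adjusted p = 0.029). The sign of both differences turned with the scaling of the columns. Without adipose columns 03, 10 and 41 and hypothalamus column 03, the adipose difference from hypothalamus was 6.75 for Col1a1, 4.94 for Col1a2 and 7.80 for Col3a1.

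The promoter windows of these highest collagens are shown because their RNA separates adipose from both other tissues. Each is the 250 bases before the start given by RefSeq (GRCm38.p6), written on the gene's strand from 5′ to 3′. Capitals mark matches on either strand to any of 3 motifs. The TATA box was searched as TATAAA. For the CCAAT box the letters of its name were searched. For the GC box the search was for GGGCGG, and none of the motifs contains another. Of 32851 RefSeq windows of that length, 12.4% hold the TATA letters, 33.8% the CCAAT letters and 32.7% the GC letters. Of the 43 collagens 34 had a window. The window of Col3a1 is chr1:45311288-45311537 on the plus strand and that of Col1a2 is chr6:4505368-4505617 on the plus strand. Some assembled models of both genes begin inside or before the window.
Col3a1: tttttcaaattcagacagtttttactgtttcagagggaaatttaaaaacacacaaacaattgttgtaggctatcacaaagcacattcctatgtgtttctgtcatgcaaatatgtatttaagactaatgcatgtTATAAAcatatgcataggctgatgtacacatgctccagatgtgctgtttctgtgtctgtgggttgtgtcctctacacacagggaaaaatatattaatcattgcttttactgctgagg
Col1a2: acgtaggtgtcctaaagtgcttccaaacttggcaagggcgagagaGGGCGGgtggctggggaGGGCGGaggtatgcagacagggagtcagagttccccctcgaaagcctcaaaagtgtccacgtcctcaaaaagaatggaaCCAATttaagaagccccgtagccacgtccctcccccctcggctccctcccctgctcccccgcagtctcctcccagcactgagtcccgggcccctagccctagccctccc
The Col3a1 window holds 1 TATA box at -117 from the start, and the Col1a2 window holds 1 CCAAT box at -109 and GC boxes at -188 and -205. These are matches of letters, not tested sites.

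Type V collagen controls how thick type I fibrils grow, and its 3 genes stood together behind types I and III in adipose. Col5a1 was at 24.1 to 60.2 FPKM (median 41), Col5a2 at 24.1 to 48.5 (median 39.6) and Col5a3 at 31 to 76.3 (median 53.8). In hypothalamus Col5a1 was listed at 0 throughout, Col5a2 was at 0.477 to 1.11 and Col5a3 was listed at 0 in all but 1 column. In liver Col5a1 was at 0 to 3.64 and Col5a2 at 0 to 2.05, and Col5a3 was listed at 0. No adipose column overlapped another tissue for any of the 3. Col5a1 and Col5a2 were called higher in adipose against both, with Col5a2 at 4.49 (SE 0.23) and 4.78 (SE 0.23). Outside adipose Col5a2 reached 1 FPKM only in hypothalamus column 28 (1.11) and liver column 42 (2.05), so the filter already favoured a difference. Col5a1 was also called lower in hypothalamus than in liver (limma adjusted p = 0.0035), although liver column 13 was listed at 0 as well and the call was lost without any of liver columns 25, 28 or 42.

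Type XI chains, known from cartilage fibrils, had the opposite pattern to types I, III and V. Col11a2 was at 2.69 to 3.58 FPKM (median 3.17) in hypothalamus and listed at 0 in all adipose and liver columns. Col11a1 was at 1.21 to 2.49 FPKM in hypothalamus, listed at 0 in liver and at 0 in 4 of 6 adipose columns, with 1.68 and 1.69 FPKM in adipose columns 03 and 41. These columns also held Crisp1, but column 10, which held it too, was listed at 0 for Col11a1. A link between the 2 genes was not tested. The adipose difference of Col11a1 from hypothalamus was -0.997 (SE 0.24), just short of the size needed. It was -1.51 without the columns holding epididymal or choroid plexus RNA. Those include both adipose columns above 0, so the larger size follows from leaving them out. The hypothalamus columns of Col11a1 alone met the filter, so no p-value is given. Among the other fibrillar genes, Col27a1 reached at most 0.424 FPKM in any column, and Col2a1 and Col24a1 were listed at 0 in all 18.

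Type VI collagen forms beaded microfilaments around cells, and adipose is among its known sites. Col6a1 was at 71.6 to 111.9 FPKM (median 82.5) in adipose, 1.43 to 4.35 (2.63) in hypothalamus and 0.315 to 5.15 (2.39) in liver. Its adipose difference was 4.59 (SE 0.30, limma adjusted p = 6.1e-11) from hypothalamus and 4.85 (SE 0.30, adjusted p = 5.8e-11) from liver. Col6a2 was at 43.1 to 120.4 FPKM in adipose, 2.0 to 4.61 in hypothalamus and 0 to 2.84 in liver. It was not in the main test, because its cell in liver column 03 had been turned into a date by spreadsheet software. Read as a day number that cell gave 0.754 FPKM, the value in the authors' gene table, and Col6a2 was then higher in adipose by 4.21 (SE 0.29, adjusted p = 1.6e-10) and 5.23 (SE 0.29, adjusted p = 1.4e-11). Col6a3, the longest of the main type VI chains, whose cleaved end is the adipokine endotrophin, was at 24.4 to 57.2 FPKM in adipose. It was listed at 0 in all but 1 hypothalamus column and all but 1 liver column, and it was higher in adipose by 5.17 (SE 0.25) and 4.99 (SE 0.25). Outside adipose it reached 1 FPKM only in liver column 42 (1.89), so the filter already favoured this difference.

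The later-named chains Col6a5 and Col6a6 were above 0 in adipose only, with 7.52 to 37.8 FPKM for Col6a5 and 2.54 to 7.54 for Col6a6. They were listed at 0 in all 12 columns of hypothalamus and liver, and Col6a4 in all 18. Adipose columns 41 and 42 had the lowest Col6a5, with 9.18 and 7.52 FPKM against 21.1 to 37.8 in the other 4.

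In the basement membrane class, Col4a1 and Col4a2 led in all 3 tissues. They encode the chains of the type IV network found in nearly every basement membrane, whose trimer holds 2 chains of Col4a1 and 1 of Col4a2. Col4a1 was at 129.7, 278.5, 350.0, 283.3, 169.4 and 352.3 FPKM in adipose columns 03, 10, 15, 25, 41 and 42. It was at 8.48, 6.88, 9.06, 9.83, 11.1 and 10.8 in hypothalamus columns 03, 13, 15, 25, 28 and 42, and at 6.40, 4.11, 7.54, 9.94, 10.2 and 13.8 in the liver columns of those numbers. Hypothalamus and liver overlapped, and the lowest adipose column was far above both. Col4a2 was at 63.2, 150.0, 203.5, 157.2, 88.1 and 173.4 FPKM in adipose, at 11.2, 11.6, 12.0, 12.0, 13.6 and 15.1 in hypothalamus and at 4.38, 2.09, 5.70, 6.48, 6.82 and 9.69 in liver. Here every hypothalamus column was above every liver column.

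The adipose difference of Col4a1 was 4.58 (SE 0.26, limma adjusted p = 8.9e-12) from hypothalamus and 4.75 (SE 0.26, adjusted p = 1.2e-11) from liver, and that of Col4a2 was 3.27 (SE 0.28, adjusted p = 4.2e-09) and 4.34 (SE 0.28, adjusted p = 1.4e-10). Between hypothalamus and liver, Col4a1 did not pass (0.16, SE 0.26, adjusted p = 0.57), with a sign that turned under median-ratio and quantile scaling. Col4a2 was higher in hypothalamus by 1.08 (SE 0.28, adjusted p = 0.0018), and this fell to 0.38 (adjusted p = 0.25) when columns were scaled to their median ratio. The 2 lowest adipose columns for both genes, 03 and 41, were also lowest for the summed endothelial markers, at 101.0 and 91.0 FPKM against 237.7 to 368.0 in the other 4, and they held epididymal RNA. Tie1 was listed at 0 in every column. The part of either in the collagen values was not tested. Without these and column 10, and without hypothalamus column 03, the Col4a1 difference from hypothalamus was 4.98 and that of Col4a2 was 3.69.

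The ratio of the partner chains differed between tissues. Col4a1 over Col4a2 was 1.72 to 2.05 (median 1.89) in adipose, 1.32 to 1.97 (1.48) in liver and 0.593 to 0.819 (0.753) in hypothalamus, where Col4a2 thus exceeded Col4a1 in every column. The mean log2 ratio differed by 1.36 between adipose and hypothalamus and by -1.05 between hypothalamus and liver (exact permutation test over columns, two-sided, p = 0.00216 each, the smallest that 6 against 6 can give; adjusted p = 0.00289 over 8 ratio comparisons). Adipose and liver differed by 0.315 (exact permutation p = 0.0108, adjusted p = 0.0108), with overlapping columns. Over adipose columns 15, 25 and 42 the ratio was 1.72 to 2.03. These ratios were chosen after their values had been seen, and a ratio shows an unequal difference, not which chain moved.

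Col1a1 over Col1a2, whose trimer also pairs 2 chains with 1, was 1.02 to 2.43 in adipose and 0.231 to 0.777 in hypothalamus, a difference of 1.89 in mean log2 ratio (exact permutation p = 0.00216, adjusted p = 0.00289). Column 42 had the highest ratio in adipose and column 25 in hypothalamus. In liver it was 0 to 0.805, with Col1a1 listed at 0 in column 13, and it was not tested. Col6a1 over Col6a2 was 0.929 to 1.77 in adipose and 0.560 to 1.00 in hypothalamus, a difference of 0.473 (exact permutation p = 0.00866, adjusted p = 0.00989), and the columns overlapped.

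**Figure D3:**
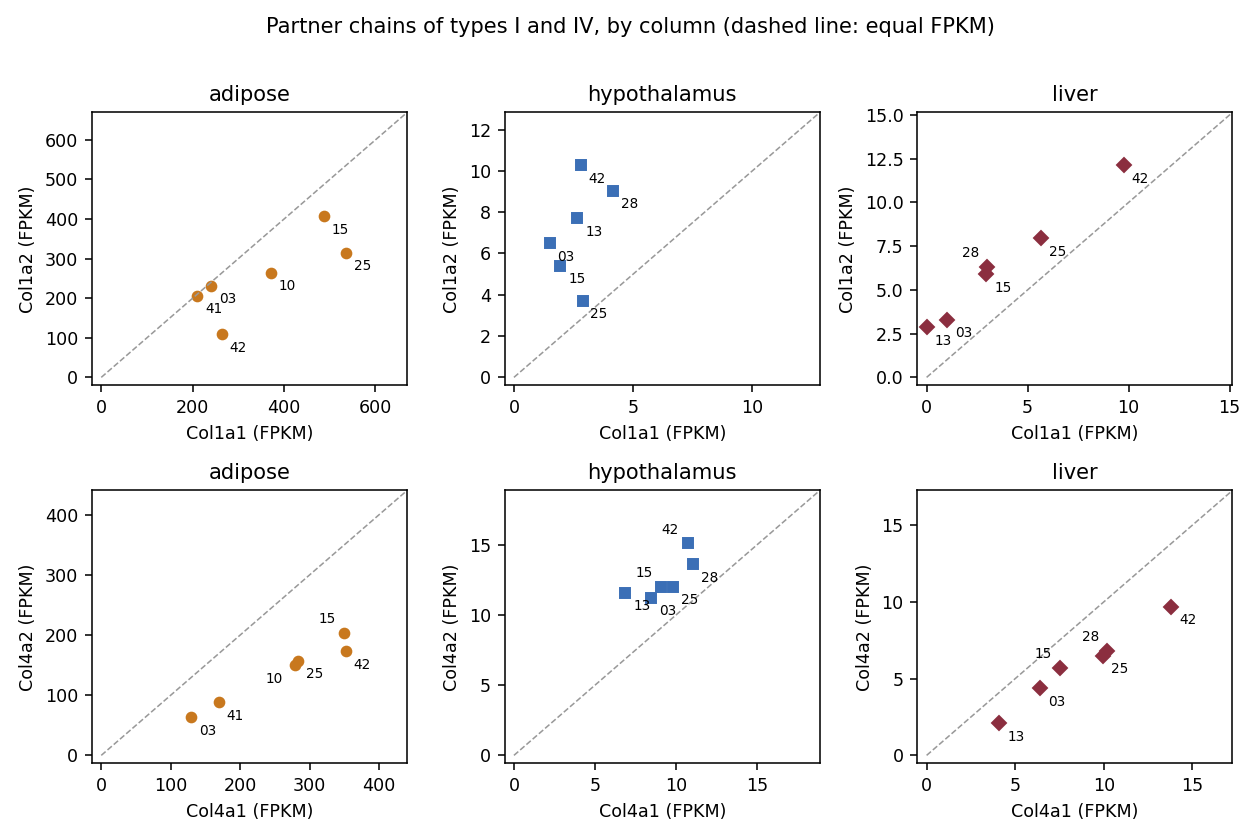
FPKM of Col1a2 against Col1a1 (upper row) and of Col4a2 against Col4a1 (lower row), 1 point per column with its number, each tissue on its own axes, and a dashed line where both are equal. Adipose points lie below the line in both rows, hypothalamus points lie above it in both rows, and liver points lie above it for type I and below it for type IV.

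Col4a1 and Col4a2 lie head to head on chromosome 8, and in these assemblies their outermost models start 3 bp apart, at 11312826 on the minus strand and at 11312829 on the plus strand (mm10). Their windows are printed because the partner ratio differed between tissues although the genes share a start region. The window of Col4a1 is chr8:11312827-11313076 on the minus strand and that of Col4a2 is chr8:11312555-11312804 on the plus strand. The RefSeq starts are 11312826 for Col4a1 and 11312805 for Col4a2, so by them each window lies wholly within the other gene.
Col4a1: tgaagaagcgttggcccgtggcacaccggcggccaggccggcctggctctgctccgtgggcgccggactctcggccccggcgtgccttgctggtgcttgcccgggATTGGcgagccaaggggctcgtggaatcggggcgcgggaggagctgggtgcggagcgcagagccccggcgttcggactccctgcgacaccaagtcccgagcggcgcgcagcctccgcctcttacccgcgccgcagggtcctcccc
Col4a2: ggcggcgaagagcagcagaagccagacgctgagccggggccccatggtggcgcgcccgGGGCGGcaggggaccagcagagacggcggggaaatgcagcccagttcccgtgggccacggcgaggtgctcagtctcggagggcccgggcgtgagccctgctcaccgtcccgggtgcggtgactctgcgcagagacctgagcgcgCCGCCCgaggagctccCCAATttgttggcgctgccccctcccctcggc
The first holds 1 CCAAT box, at -145, and the second 1 CCAAT box at -32 and GC boxes at -48 and -192.

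The other type IV chains build specialised networks. Col4a5 was at 5.86 to 15.5 FPKM (median 12.5) in adipose, 0.173 to 1.61 (1.11) in hypothalamus and listed at 0 in liver. It was higher in adipose against hypothalamus by 2.61 (SE 0.20, limma adjusted p = 5.9e-10), and the hypothalamus call over liver (adjusted p = 0.00011) was lost without hypothalamus column 28 or 42. Col4a6, its head-to-head neighbour on chromosome X and partner in smooth muscle basement membranes, was at 1.37 to 5.75 FPKM in adipose and listed at 0 elsewhere. Col4a3, known from kidney, lung and testis basement membranes, was at 0.143 to 4.44 FPKM in adipose, at 0 to 0.495 in liver and listed at 0 in hypothalamus. It was not tested, and the liver values come only from models on the strand opposite to the gene. Its partner Col4a4 was listed at 0 in all 18 columns.

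Fibril-associated collagens bind to the surface of fibrils and were divided between the tissues. Col14a1, found along type I fibrils, was at 8.6 to 18.2 FPKM (median 12.2) in adipose, 2.55 to 9.90 (4.73) in liver and listed at 0 in every hypothalamus column. Its adipose difference from liver was 1.12 (SE 0.22, limma adjusted p = 0.00022), with overlapping columns, and it fell to 0.97 without liver column 13 and to 0.98 without the columns holding epididymal or choroid plexus RNA, short of the size called. Col16a1 was at 2.28 to 9.81 FPKM in adipose, 0.782 to 3.5 in hypothalamus and listed at 0 in liver, and its adipose difference from hypothalamus of 0.98 (SE 0.25, adjusted p = 0.0017) lay at the edge of the size needed. It reached 1.39 when columns were scaled to their median ratio. Col12a1 was at 0 to 8.39 FPKM in adipose, highest in column 03, and reached no more than 0.365 in hypothalamus and 0.237 in liver.

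Col9a2 and Col9a3 encode chains of type IX collagen, which coats cartilage fibrils, and were above 0 in hypothalamus only. Col9a3 was at 7.46, 6.56, 7.15, 8.98, 8.29 and 6.55 FPKM in hypothalamus columns 03, 13, 15, 25, 28 and 42, and Col9a2 at 4.85, 4.89, 4.43, 3.35, 4.63 and 6.46. Both were listed at 0 in all 12 adipose and liver columns. Their partner Col9a1 was listed at 0 in all 18 columns. Col19a1 and Col22a1 were also listed at 0 throughout, and Col20a1, whose models overlap the neighbouring gene Arfgap1, reached 2.76 FPKM in 1 hypothalamus column with a median of 0.133 there.

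Col25a1, a transmembrane collagen of neurons whose shed part binds amyloid beta, stood with Col4a2 as the highest collagens of the hypothalamus, where their columns overlapped. It was at 13.7, 11.9, 12.3, 13.3, 11.3 and 11.4 FPKM in columns 03, 13, 15, 25, 28 and 42 and listed at 0 in all adipose and liver columns. Its window, chr3:130180595-130180844 on the plus strand, is shown because the gene was above 0 in hypothalamus only.
Col25a1: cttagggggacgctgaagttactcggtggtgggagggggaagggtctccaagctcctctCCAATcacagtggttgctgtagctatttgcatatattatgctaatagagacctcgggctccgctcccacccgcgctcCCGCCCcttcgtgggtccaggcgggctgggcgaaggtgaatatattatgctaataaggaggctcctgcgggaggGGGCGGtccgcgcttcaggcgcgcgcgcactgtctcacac
It holds 1 CCAAT box and 2 GC boxes. The other transmembrane collagens, Col13a1 and Col17a1, were listed at 0 in all 18 columns.

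Col18a1, a multiplexin of vascular and epithelial basement membranes whose cleaved end is the angiogenesis inhibitor endostatin, was the only tested collagen called lower in adipose than in liver. It was at 102.6, 74.8, 108.4, 126.3, 129.2 and 144.1 FPKM in liver columns 03, 13, 15, 25, 28 and 42. It was at 16.8 to 25.4 FPKM (median 17.6) in adipose and 1.45 to 2.26 (1.83) in hypothalamus, and the 3 tissues did not overlap. Liver exceeded adipose by 2.49 on the log2 scale, written as -2.49 for adipose against liver (SE 0.14, limma adjusted p = 2.0e-11). Hypothalamus against liver was -5.31 (SE 0.14, adjusted p = 5.8e-17), and adipose against hypothalamus was 2.82 (SE 0.14, adjusted p = 1.3e-12). Col15a1, the other multiplexin, reached 0.813 FPKM in adipose, from models on the strand opposite to the gene only, and was listed at 0 elsewhere.

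The models of Col18a1 began in 2 regions of chromosome 10, and the tissues used them differently. The gene is known to have an upstream promoter giving a short protein and a downstream one active in hepatocytes that gives longer proteins. Models starting at 77166530 to 77166691 (mm10, minus strand), the upstream region, carried 55.5 to 77.9% (median 69.1%) of the gene's FPKM in adipose and 50.1 to 93.7% (71.4%) in hypothalamus. They were listed at 0 in all 6 liver columns. Models starting at 77113705 to 77113981 carried all of the liver value and 3.85 to 7.67 FPKM in adipose. This split was noticed after the values had been seen and is given without a test, and reads shared by both kinds of model are apportioned by the assembler.

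**Figure D4:**
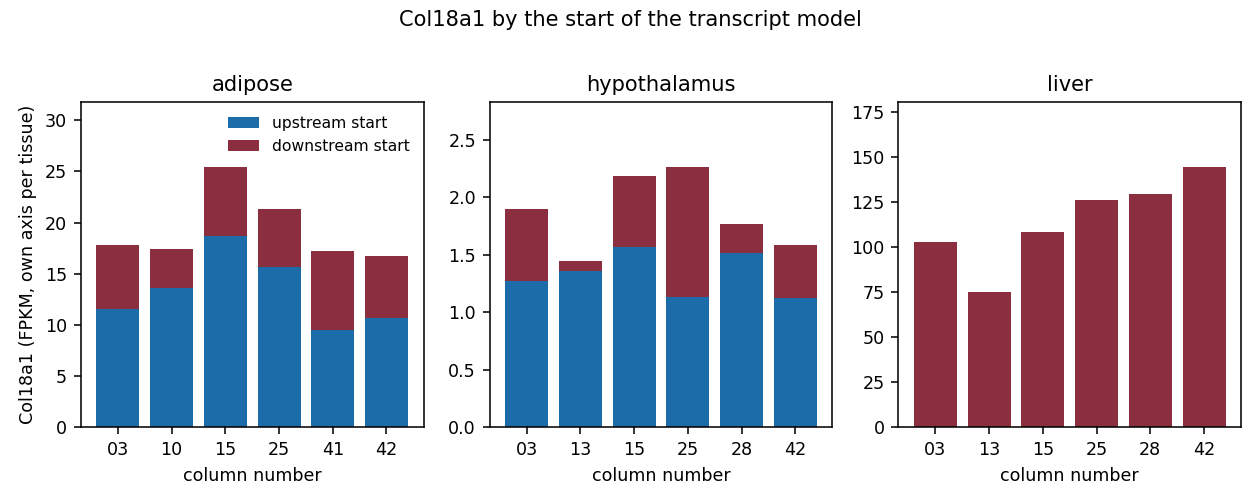
Col18a1 FPKM per column, stacked by whether the transcript model starts in the upstream or the downstream region, each tissue on its own axis from 0. Liver bars consist of the downstream start only, and in adipose and hypothalamus the upstream start makes up 50.1% or more of every bar.

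Both start windows are shown, since the liver value comes from the downstream one alone. The upstream window is chr10:77166531-77166780 and the downstream window chr10:77113706-77113955, both on the minus strand.
Col18a1 upstream: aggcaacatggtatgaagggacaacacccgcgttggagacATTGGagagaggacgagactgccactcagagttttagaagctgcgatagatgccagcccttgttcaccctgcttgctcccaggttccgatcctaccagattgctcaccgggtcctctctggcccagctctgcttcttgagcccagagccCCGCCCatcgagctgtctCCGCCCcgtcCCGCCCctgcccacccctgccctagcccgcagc
Col18a1 downstream: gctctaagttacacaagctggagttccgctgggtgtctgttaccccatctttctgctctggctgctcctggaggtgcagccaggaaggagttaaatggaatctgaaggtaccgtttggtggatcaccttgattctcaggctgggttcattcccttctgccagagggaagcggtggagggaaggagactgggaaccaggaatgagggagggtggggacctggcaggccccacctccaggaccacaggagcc
The upstream window holds 3 GC boxes, at -33, -43 and -61, and 1 CCAAT box at -210. None of the 3 motifs occurs in the downstream window, which says only that these letters are not there.

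The remaining classes were low. Col8a1 and Col8a2, the network-forming chains known from the corneal Descemet membrane and vessel walls, were at 0.470 to 4.07 and 0 to 6.36 FPKM in adipose, 0.369 to 1.43 and 0.622 to 1.57 in hypothalamus, and listed at 0 in liver. Col8a2 was called higher in adipose against liver by 1.73 (SE 0.32). Outside adipose it reached 1 FPKM only in hypothalamus column 03 (1.57), so the filter already favoured a difference from liver. Against hypothalamus its columns overlapped, and the difference of 0.81 (SE 0.32) reached 1.15 without adipose column 42. Col28a1, a chain known from peripheral nerve sheaths, was at 0.334 to 3.6 FPKM in adipose only, and Col26a1 was at 0.827 to 1.60 in hypothalamus only. Neither was tested. Col7a1, the anchoring fibril chain of skin, was above 0 in 1 adipose column, with 1.44 FPKM, and Col10a1 reached 0.0327 FPKM in 1 liver column.

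Pairs of collagen genes were also compared from column to column within a tissue. Of 25 pairs and tissues with both genes at a median of at least 1 FPKM, 13 had a Pearson r with an adjusted p under 0.05 (exact permutation test, two-sided, n = 6 columns, adjusted over the 25). Of these 13, 8 (of 14) join chains of one collagen type and 5 (of 11) join different types. The share of all gene pairs that correlate as strongly was not computed, so these counts say nothing particular about collagens. With the highest model per gene 4 pairs passed, and on the log2 scale 7. As the treatment of the columns is unknown, these can include a difference between treatments. In adipose, Col4a1 and Col4a2 had r = 0.981 (rho = 0.943, exact permutation p = 0.00417, adjusted 0.0149), which stayed at 0.840 without columns 03 and 41. Col5a1 and Col5a2 had r = 0.929 (rho = 0.943, exact permutation p = 0.00833, adjusted 0.0231), and 0.963 without the 2 columns farthest from the median. Col4a5 and Col4a6 had r = 0.937 (rho = 0.943, exact permutation p = 0.00278, adjusted 0.0149), and 0.805 without columns 41 and 42. With the highest model per gene, Col5a1 with Col5a2 (exact permutation adjusted p = 0.064) and Col4a5 with Col4a6 (adjusted p = 0.12) no longer passed.

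Other adipose pairs rested on a few columns. Col6a1 and Col6a2 had r = 0.864 (rho = 0.943, exact permutation p = 0.0125, adjusted 0.0284), but 0.313 without columns 15 and 25. Col1a1 and Col5a1 had r = 0.908 (rho = 0.886, exact permutation p = 0.0222, adjusted 0.0427), but 0.564 without the same columns and 0.36 when each gene was taken as its highest model. Col1a1 and Col1a2 did not pass (r = 0.786, rho = 0.771, exact permutation p = 0.0569, adjusted 0.0949), nor did Col1a1 and Col4a1 across classes (r = 0.573, rho = 0.543, exact permutation p = 0.25, adjusted 0.284).

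In hypothalamus, of 7 pairs only Col6a1 and Col6a2 passed (r = 0.938, rho = 0.771, exact permutation p = 0.0181, adjusted 0.0376), with 0.967 without columns 25 and 42. This pair no longer passed with the highest model per gene (exact permutation adjusted p = 0.059) or on the log2 scale (adjusted p = 0.078). Its rho did not pass either (exact permutation p = 0.103, adjusted 0.161). Col4a1 and Col4a2 had r = 0.771 (rho = 0.829, exact permutation p = 0.075, adjusted 0.116) and Col1a1 and Col1a2 r = 0.411 (rho = 0.257, exact permutation p = 0.435, adjusted 0.453). With 6 columns such values leave room for a relation that was not detected.

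In liver all 7 pairs passed, also those across classes, again without the share of all gene pairs beside them. For Col6a1 and Col6a2 this used the day-number value of 0.754 FPKM for Col6a2 in column 03. With the highest model per gene, Col1a1 no longer passed with Col1a2 (exact permutation adjusted p = 0.059) or Col6a1 (adjusted p = 0.058). On the log2 scale Col1a1 with Col5a1 (adjusted p = 0.056), Col1a1 with Col6a1 (0.058) and Col6a1 with Col6a2 (0.059) were lost. Col1a1 and Col1a2 had r = 0.993 (rho = 1.00, exact permutation p = 0.00139, adjusted 0.0116), and 0.962 without columns 13 and 42. Col4a1 and Col4a2 had r = 0.988 (rho = 1.00, exact permutation p = 0.00139, adjusted 0.0116), and 0.961 without the same columns. Col1a1 and Col4a1 had r = 0.939 (rho = 0.943, exact permutation p = 0.00417, adjusted 0.0149), and 0.754 without them. Col1a1 and Col6a1 had r = 0.913 (rho = 0.943, exact permutation p = 0.0125, adjusted 0.0284), but 0.572 without the same columns. Of the 10 collagens with a liver median of at least 1 FPKM, all 10 were highest in column 42 and 9 were lowest in column 13. Summed liver endothelial markers were at 20.1 FPKM in column 42, 12.6 in column 13 and 11.5 to 16.1 in the others, and fibroblast markers were at 91.2, 84.9 and 63.3 to 86.1. Most of the fibroblast sum was Dcn, at 56.75 to 81.35 FPKM, and Pi16, Fbln2 and Mfap5 were listed at 0 in every liver column. Of the 6 stellate markers, 2 had a liver median of at least 1 FPKM and Reln was listed at 0 in every column, and their sum was at 7.54 FPKM in column 42, 6.78 in column 13 and 5.22 to 8.23 in the others. The part of these cells in the liver pattern was not tested.

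Collagen chains need a dedicated set of enzymes and chaperones, and genes of these steps were counted from lists by role. Each count is read against the share of all genes tested that was called the same way. A gene that reached 1 FPKM in 1 tissue only had to differ here too. In modification and folding, 4 of 20 tested genes were higher in adipose than in hypothalamus, beside 13.1% of all genes, and 3 were lower, beside 38.3%. Against liver 11 were higher, beside 22.8%, and 2 lower, beside 12.8%. The 4 higher and the 2 lower are near the shares of all genes. Serpinh1, the collagen chaperone HSP47, was at 47.8 to 86.2 FPKM in adipose, 5.59 to 9.94 in hypothalamus and 2.30 to 6.89 in liver, and was higher in adipose by 2.95 (SE 0.21, limma adjusted p = 2.3e-10) and 3.73 (SE 0.21, adjusted p = 1.5e-11). Fkbp10, a collagen prolyl isomerase, was at 8.41 to 14.1 FPKM in adipose and 1.46 to 2.83 in hypothalamus (1.83, SE 0.16, adjusted p = 4.1e-09). Mia3, which helps to load collagen into transport vesicles, went the opposite way, with 10.6 to 23.6 FPKM in hypothalamus and 0 to 0.914 in adipose (-3.82, SE 0.22). No adipose column of Mia3 reached 1 FPKM, so the filter already favoured this difference and no p-value is given. Between hypothalamus and liver, 12 of the 20 were higher in hypothalamus, beside 48.4% of all genes, and 4 were lower, beside 13.1%. Both counts are near the shares of all genes. The largest called differences were those of Mia3 (3.31, SE 0.22) and Leprel2 (3.02, SE 0.25), both higher in hypothalamus. P4hb, a subunit of prolyl hydroxylase that also folds other secreted proteins, was higher in liver. It was at 334 to 468 FPKM in liver and 39.6 to 54.5 in hypothalamus (-2.99, SE 0.21, adjusted p = 1.5e-10).

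Of the secreted processing and cross-linking enzymes, 5 of 7 tested were higher and 0 lower in adipose than in hypothalamus, beside 13.1% and 38.3% of all genes, and 5 were higher and 1 lower against liver, beside 22.8% and 12.8%. Lox, which cross-links collagen and elastin, was at 10.6 to 23.7 FPKM in adipose, 0 to 1.01 in hypothalamus and 0 to 0.564 in liver. Its lowest adipose column was above every column of the other tissues. Bmp1, which cuts off the procollagen C-terminal end, was higher in liver, with 20.7 to 26.2 FPKM against 6.08 to 8.24 in hypothalamus (-1.55, SE 0.09, adjusted p = 1.2e-11).

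All 13 proteins that bind collagen fibrils were tested, and 11 were higher and 0 lower in adipose than in hypothalamus, beside 13.1% and 38.3% of all genes. Against liver 11 were higher and 1 lower, beside 22.8% and 12.8%. Postn, which links fibrils to the cross-linking machinery, was at 52.9 to 99.1 FPKM in adipose and 0 to 0.919 in hypothalamus. Between hypothalamus and liver the list was divided, with 5 higher and 6 lower, beside 48.4% and 13.1% of all genes. Fn1, the plasma and matrix fibronectin, was at 69.9 to 179 FPKM in liver and 6.90 to 10.3 in hypothalamus (-3.79, SE 0.22, adjusted p = 9.7e-12). Sparc, a collagen-binding glycoprotein, was at 152 to 1010 FPKM in hypothalamus and 37.4 to 110 in liver (3.13, SE 0.38, adjusted p = 3.8e-07).

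The basement membrane partners of type IV collagen were counted next: 7 of 8 tested were higher and 1 lower against hypothalamus, beside 13.1% and 38.3% of all genes, and 8 of 8 were higher against liver, beside 22.8%. Hspg2, perlecan, was at 28.3 to 91.1 FPKM in adipose, 0 to 0.834 in hypothalamus and listed at 0 in liver. Nid1, which joins laminin to type IV collagen, was at 59.2 to 115 FPKM in adipose and 3.90 to 5.14 in hypothalamus (3.98, SE 0.21, limma adjusted p = 2.3e-12). Agrn, a heparan sulfate proteoglycan of synapses and vessels, was at 13.7 to 17.1 FPKM in hypothalamus and 1.23 to 2.06 in liver (2.66, SE 0.09, adjusted p = 2.1e-15).

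The list of collagen degradation also holds the metalloproteinase inhibitors Timp1 to Timp4, so its counts give no direction of degradation. It was divided between adipose and hypothalamus, with 3 of 9 tested genes higher and 3 lower in adipose, beside 13.1% and 38.3% of all genes. Against liver 6 were higher and 0 lower in adipose, beside 22.8% and 12.8%, and 6 and 0 in hypothalamus, beside 48.4% and 13.1%. The 3 lower in adipose and the 6 higher in hypothalamus say little of degradation genes beside those shares. The 3 largest differences called against liver were those of the inhibitors Timp2, Timp3 and Timp4, for adipose and for hypothalamus alike. Timp2, a metalloproteinase inhibitor, was at 153 to 177 FPKM in hypothalamus, 16.7 to 36.1 in adipose and 2.25 to 5.42 in liver, with no overlap (hypothalamus against liver 5.19, SE 0.17, limma adjusted p = 1.6e-15). Mmp2, which cleaves type IV and denatured collagens, was at 8.44 to 16.3 FPKM in adipose and 1.30 to 1.96 in hypothalamus (2.36, SE 0.19, adjusted p = 1.1e-09). Of 5 receptors tested, 3 were higher and 2 lower in adipose than in hypothalamus, beside 13.1% and 38.3% of all genes, so the 2 lower are near the share of all genes. The 2 collagen receptor kinases were opposed. Ddr2, which binds fibrillar collagens, was at 6.73 to 11.9 FPKM in adipose and 0.321 to 0.946 in hypothalamus. Ddr1 was at 17.8 to 27.5 FPKM in hypothalamus and 2.48 to 9.18 in adipose (-1.87, SE 0.19, adjusted p = 4.8e-08). Gpr56, a receptor that binds type III collagen in the developing brain, was at 37.9 to 43.4 FPKM in hypothalamus, 10.7 to 23.3 in adipose and 0.552 to 1.71 in liver, and was higher in hypothalamus than in liver by 4.30 (SE 0.17, adjusted p = 3.1e-14).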

How the data were processed

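The authors deposited FPKM by gene and, in a separate file, by transcript model, with 6 columns for each tissue, per the file headers. Reads were aligned with HISAT 0.1.6 and assembled with StringTie 1.0.4 on mm10, per the submitters' processing notes; the annotation and strandedness are not given in the sources used here. Libraries were poly-A selected, per the labels' protocols. FPKM were summed over the models of a gene name per column. Date-like cells, the work of spreadsheet software (13 in adipose, 9 in hypothalamus and 9 in liver), were left missing in the main fit and in the values of single genes. They were read as day numbers in the class sums, marker sums, shares, ratios and correlations. With columns grouped by tissue, limma 3.58.1 (R 4.3.3, lmFit and eBayes with trend) was fitted on log2(FPKM + 1) over all 18 columns, with Benjamini-Hochberg adjustment per contrast, and was tested on simulated data. Correlations and ratios of chains used exact permutation tests in Python 3.11.15; the ratio tests, the start regions and 3 alternatives were added after values had been seen. Collagen members and gene lists were chosen with earlier results of these data known. All collagens with a median of at least 1 FPKM in a tissue are named, and of the pathway lists genes among the 3 largest called differences per list and contrast. Heading numbers were not used to pair columns: no label says that they do, and no pair of same-numbered columns correlated over 0.1. Correlations with Col6a2 in liver column 03 used the day-number reading of a date-like cell. 1 further gene with a name of the collagen form is not reported here. Protein sequences were not used here.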

Additional observations from a re-analysis of the deposited data

How the results depend on the processing

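No called collagen difference changed sign, and no correlation did under median-ratio scaling, with the highest model per gene or on the log2 scale. Without the 2 columns farthest from the median of the first gene, some pairs that had not passed turned negative. In adipose these were Col1a1 with Col3a1 (0.726 to -0.489), Col6a1 with Col6a3 (0.838 to -0.326) and Col1a1 with Col6a1 (0.771 to -0.448). In hypothalamus it was Col11a1 with Col11a2 (0.61 to -0.553). Of the gene differences recomputed, 2185 kept direction and side of the threshold, 31 came to pass it, 23 no longer did and 17 changed sign, all in hypothalamus against liver and none called before or after. Col1a1 (-0.03) became 0.41 and 0.95 with pseudocounts of 0.1 and 0.01, 0.17 scaled to the sum of FPKM, 0.07 without the columns holding epididymal or choroid plexus RNA, and -0.40 to 0.28 leaving out 1 column at a time, above 0 without hypothalamus 03 or 15 or liver 25 or 42. Scaling to the median ratio turned Col1a2 (-0.47), Col4a1 (-0.53) and Col6a1 (-0.26). Quantile normalization turned Col1a2 (-0.77), Col4a1 (-0.73), Col5a2 (-0.75), Col5a3 (-0.25) and Col6a1 (-0.98). Col6a3 became 0.08 without liver column 42. Counts moved by more than 1.5 times in 5 cases. With a filter of 5 FPKM, which keeps fewer genes, 2 rather than 4 collagens were lower in adipose than in hypothalamus, and 4 rather than 8 were higher in hypothalamus than in liver. Quantile normalization also gave 4 for the latter. Of the 13 correlated pairs, 4 passed with the highest model per gene and 7 on the log2 scale; Col6a1 with Col6a2 in liver could not be recomputed with the highest model. Apart from the filter, the cause was not tested. Leaving out 1 column at a time gave 16 to 18 and 4 to 5 collagens higher and lower in adipose against hypothalamus, 16 to 17 and 1 against liver, and 7 to 8 and 3 to 4 in hypothalamus against liver. With the heading number as a replicate block the counts were 16 and 5, 15 and 1, and 8 and 4. The block lost Col14a1 (limma adjusted p = 0.13) and Col8a2 in adipose against liver. The numbers are not known to pair columns: of 4, 4 and 6 shared numbers, 3, 1 and 0 correlated best with their own number. Without the columns holding epididymal or choroid plexus RNA the counts were 16 and 5, 16 and 1, and 8 and 4. Depth is unknown, and genes near 1 FPKM, such as Col8a2, Col11a1 and Col16a1, lie close to the thresholds used.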
